A study of Malus domestica with 6 samples.

Results

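The genes described here were 3 of the 52311 gene IDs measured in apple flesh. MD02G1192600 is annotated as xyloglucan endotransglucosylase/hydrolase 6 (XTH6), MD00G1180100 as xyloglucan endotransglucosylase/hydrolase 8 (XTH8), and MD03G1029100 as cellulose synthase like E1 (CslE1). They were picked by ID, with their differences between red flesh and white flesh in these same libraries already known. Those differences are therefore given below as a description, with no test. MD02G1192600 lies on chromosome 2 and MD03G1029100 on chromosome 3 by their IDs, and MD00G1180100 belongs to sequence not assigned to a chromosome.

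Messenger RNA was sequenced from red-flesh (RF) and white-flesh (WF) mesocarp, the edible cortex, of fruits of the red-flesh cultivar cv. 'R201', with no treatment, at 84 days after full bloom. There were 3 RF libraries and 3 WF libraries, lettered A, B and C in each flesh type. By the labels, RF and WF were cut from shared fruits, and the replicates, called semi-biological, came from different trees. All libraries thus share 1 cultivar and 1 stage. The study describes RF as lying outside and WF inside in the cortex, and flesh colour therefore cannot be told apart from depth in the fruit. How many fruits or trees entered a library is not given in the sources used here, and p-values measure the spread between these samples.

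Xyloglucan is the main hemicellulose of the primary wall in dicot plants, and it coats and links cellulose microfibrils. XTH enzymes cut a xyloglucan chain and rejoin the cut end to another chain or to water, and members of the family are known for roles in wall loosening, growth and fruit softening. The cellulose synthase superfamily holds the cellulose synthases and the cellulose synthase-like (Csl) proteins. In Arabidopsis, CslC proteins make the glucan backbone of xyloglucan and CslA proteins make the backbone of mannans. The product of the CslE group is less well known.

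The libraries were of nearly equal depth, with 25540845 to 25959371 estimated reads in RF and 25536185 to 26050906 in WF. The colour labels were checked against MdGSTU22 (MD17G1272100), a glutathione S-transferase linked to anthocyanin transport, and MdCHS (MD04G1003300), chalcone synthase. MdGSTU22 was at 1406 to 1757 TPM in RF and 315 to 378 TPM in WF, and MdCHS was at 1361 to 1530 TPM in RF and 372 to 459.6 TPM in WF. TPM is a transcript abundance scaled for length within a library, and CPM is a read count scaled for depth with library sizes scaled by the trimmed mean of M-values. Of 28610 genes tested with edgeR, 3080 (10.8%) were called at an adjusted p under 0.05. Of these, 1740 (6.08%) were higher and 1340 (4.68%) lower in RF. With the replicate letter as a block, 2981 were higher and 2401 lower. Without RF A, 941 were higher and 666 lower, without WF B 939 and 705, and without RF C 807 were lower.

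MD02G1192600, the XTH6 gene, was the abundant xyloglucan enzyme of the set. It had 698.5, 518 and 392 TPM in RF libraries A, B and C, against 197, 205 and 164 TPM in WF libraries A, B and C. All RF values lay above all WF values, and RF library A was the highest of the 6. These levels placed the gene at ranks 113, 173 and 273 among all gene IDs in RF, and at ranks 741, 677 and 894 in WF. The underlying estimated reads were 14742, 11028 and 8438 in RF and 4239, 4430 and 3589 in WF, so counting error was small beside the differences between libraries. The mean was 536 ± 154 TPM in RF and 189 ± 21.7 TPM in WF (SD, n = 3 each). The fitted log2 fold change, RF over WF, was 1.51 (SE 0.17), a fold of 2.85.

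MD00G1180100, the XTH8 gene, was a low-level transcript with a larger fold difference. It had 12.4, 8.95 and 9.22 TPM in RF libraries A, B and C, against 1.61, 2.14 and 1.48 TPM in WF. The flesh types did not overlap, and RF library A was again the highest. The estimated reads were 226, 165 and 171 in RF and only 30, 40 and 28 in WF, so the WF level rested on few reads. The mean was 10.2 ± 1.91 TPM in RF and 1.74 ± 0.35 TPM in WF (SD, n = 3 each). The fitted log2 fold change was 2.54 (SE 0.20), a fold of 5.83.

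MD03G1029100, the CslE1 gene, was at an intermediate level. It had 80.4, 62.9 and 73.2 TPM in RF libraries A, B and C, against 33.5, 25.6 and 31.1 TPM in WF. The flesh types did not overlap, and library B was the lowest of each. The estimated reads were 3983, 3117 and 3729 in RF and 1697, 1289 and 1600 in WF. The mean was 72.1 ± 8.78 TPM in RF and 30.1 ± 4.05 TPM in WF (SD, n = 3 each), and the fitted log2 fold change was 1.27 (SE 0.11), a fold of 2.41.

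**Figure D1:**
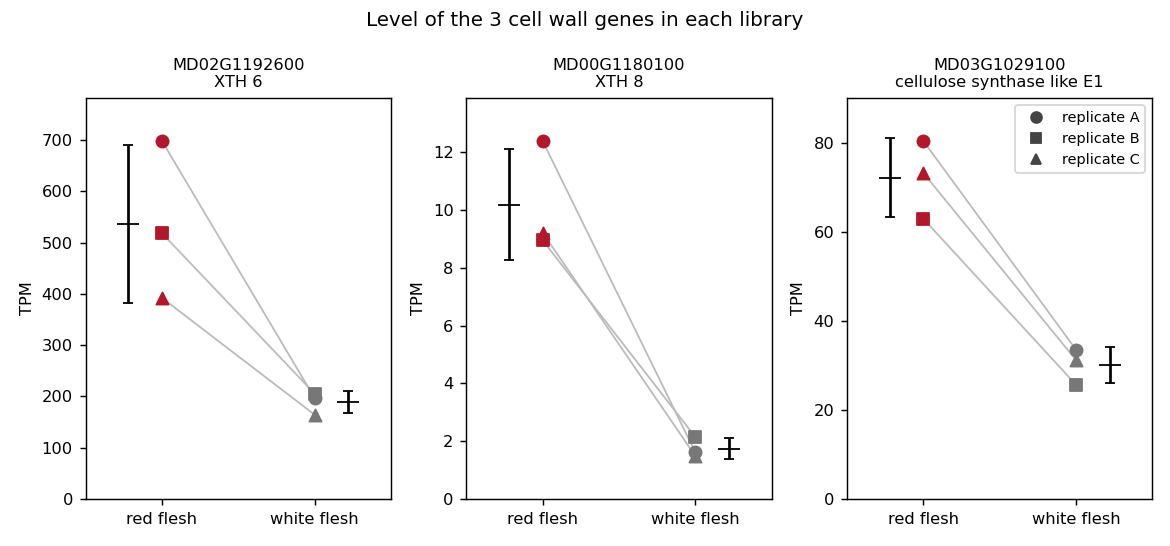
TPM of the 3 genes in each library, with RF left of WF in each panel, points for libraries lettered A, B and C, and bars for the mean ± SD (n = 3). The lowest RF library lies above the highest WF library in every panel, and the panels have separate scales because the levels run from 1.48 to 698.5 TPM.

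From the largest increase in RF downward among all tested genes, MD00G1180100 ranked 45, MD02G1192600 ranked 185 and MD03G1029100 ranked 265. Genes lower in RF come last in this order whatever the size of their difference. The lowest RF library exceeded the highest WF library by 4.18 times for MD00G1180100, 1.91 times for MD02G1192600 and 1.88 times for MD03G1029100 in TPM. By any margin, however small, the lowest RF library lay above the highest WF library for 4265 (14.9%) of the tested genes in CPM. The share with gaps as large as these was not computed. Since the genes were picked with this difference known, nothing is read from their share. In bulk tissue, fewer cells of a type and less RNA per cell cannot be told apart. The reads of near-identical genes are divided among them by the quantification, so the level of each XTH gene is uncertain to that extent. The estimated reads of MD02G1192600 lay up to 0.4 from a whole number, those of MD03G1029100 up to 0.193 and those of MD00G1180100 up to 0.064. These distances do not show how many reads were shared with other genes.

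The absolute levels of the xyloglucan enzymes lay far apart, and the gap between them was narrower in RF. The ratio of MD02G1192600 to MD00G1180100 in TPM was 56.4, 57.9 and 42.6 in RF libraries A, B and C, against 122, 95.9 and 111 in WF. The ratio averaged 52.3 ± 8.45 in RF and 109.6 ± 13.1 in WF (SD, n = 3 each), with no overlap. This restates the larger fold of MD00G1180100, known when the genes were picked, and is no further result. The 28 to 40 WF reads of MD00G1180100 limit the WF ratio. Against CslE1, XTH6 stood at 8.69, 8.24 and 5.36 times its TPM in RF and at 5.87, 8.02 and 5.27 times in WF. Here the flesh types overlapped, with means of 7.43 ± 1.81 in RF and 6.39 ± 1.45 in WF (SD, n = 3 each).

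The labels do not say that a letter marks the same fruits in RF and WF, but libraries of a letter deviated together, and ratios were also formed within letters. The RF to WF ratio in TPM for MD03G1029100 was 2.40 in A, 2.46 in B and 2.35 in C. The ratio was nearly the same in each letter although the level itself was lowest in library B of both flesh types. For MD02G1192600 it was 3.55, 2.53 and 2.39, with A apart from B and C. For MD00G1180100 it was 7.70, 4.18 and 6.22, with B the lowest, where the WF library held its highest count of 40 reads.

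**Figure D2:**
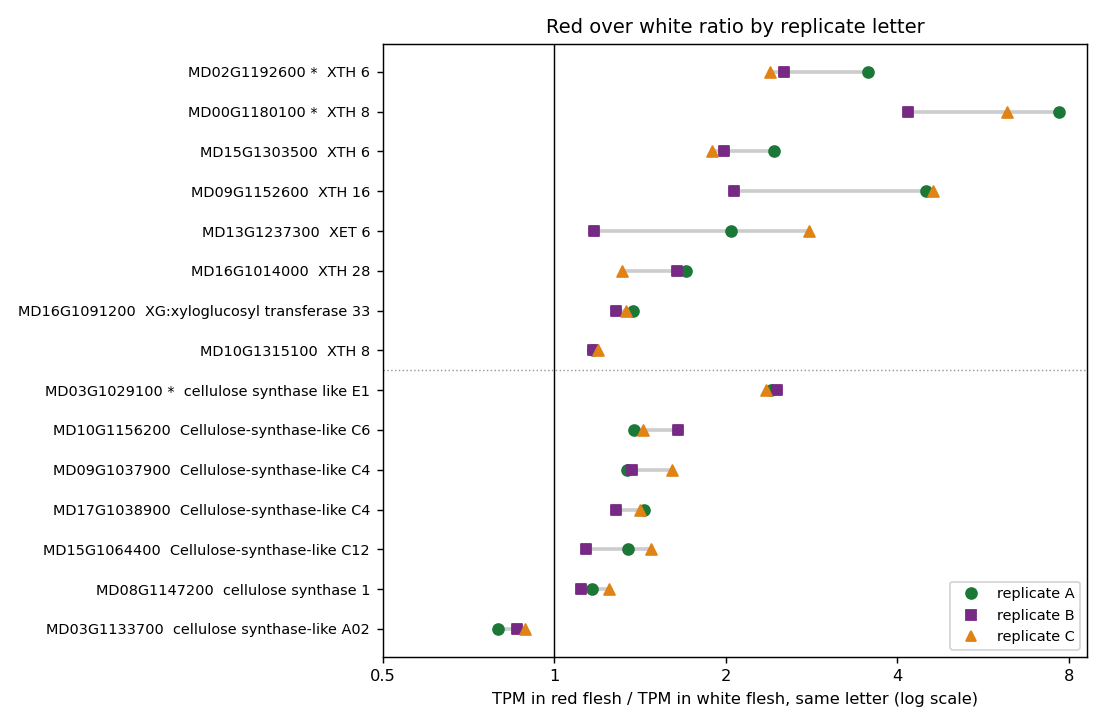
RF to WF ratio in TPM within each letter (A, B, C), on a log axis, with 1 point per letter. Shown are the 8 described XTH genes and 7 described genes of the cellulose synthase superfamily, with the 3 genes starred. The CslE1 points lie between 2.35 and 2.46, whereas those of MD02G1192600 run from 2.39 to 3.55 and those of MD00G1180100 from 4.18 to 7.70.

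The spread of these ratios was set beside that of the 19503 tested genes with a mean of at least 100 counts. The SD over letters of the log2 ratio, in CPM with 0.5 added, was 0.036 for MD03G1029100, and 90.7% of those genes had a larger SD. It was 0.34 for MD02G1192600, where 3.01% of genes had a larger SD, and 0.39 for MD00G1180100, where 1.69% had. The median gene had an SD of 0.11. The low WF reads of MD00G1180100 add counting error to its ratio. Its SD without the 0.5 was 0.46, so the added value narrowed its spread. The genes compared were not matched for abundance. For MD03G1029100 counting alone gave a coefficient of variation of 1.66% in RF and 2.56% in WF. With 1 ratio per letter, nothing is read from its small SD.

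Within a flesh type, the spread of MD02G1192600 was wider in RF than in WF. Its coefficient of variation in TPM was 28.7% in RF and 11.5% in WF, while counting alone gave 0.936% in RF and 1.56% in WF. For MD03G1029100 the coefficient of variation was 12.2% in RF and 13.5% in WF. For MD00G1180100 it was 18.8% in RF and 20.0% in WF, and the SD of its reads was 33.7 in RF against a counting SD of 13.7, and 6.43 in WF against 5.72. The WF spread of MD00G1180100 was thus near its counting error. Whether the spread differed between flesh types was not tested.

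The biological coefficient of variation fitted by edgeR, the variation beyond counting error, was 14.6% for MD02G1192600, 2.14 times the 6.82% that the trend gave for genes of its abundance. That excess was larger than in 99.0% of tested genes. For MD03G1029100 the values were 9.86% and 6.66%, an excess larger than in 95.2% of tested genes. For MD00G1180100 they were 13.4% and 11.4%, larger than in 86.0%. Of the 3 genes, XTH6 was the most variable for its level in this fit. The fit has no term for the letter, so deviations shared by both flesh types of a letter count as variation here. CslE1 was lowest in library B of each flesh type. Within letters its log2 ratio had an SD of 0.036, and 90.7% of the genes compared had a larger SD.

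The genes whose profile was most like each of the 3 were found by Pearson's r of log2 CPM over the 6 libraries, among 19502 other genes with a mean of at least 100 counts. The points share the split between flesh types, so a high r can come from that split alone, and the values are a description. MD02G1192600 was most like a CCCH-type zinc finger gene (MD07G1222900, r = 0.997), a heavy metal transport/detoxification gene (MD12G1222200, r = 0.997) and a UDP-glycosyltransferase gene (MD15G1211400, r = 0.995). MD00G1180100 was most like a WD40 repeat gene (MD06G1037700, r = 0.998), MD12G1186700, for which no description was held (r = 0.998), and acyl-activating enzyme 18 (MD03G1006300, r = 0.997). MD03G1029100 was most like MD07G1294500, also without a description (r = 0.999), an S-adenosylmethionine-dependent methyltransferase gene (MD10G1182100, r = 0.998) and tetraspanin8 (MD13G1273700, r = 0.998). Pearson's r takes no account of the size of a difference. In the order named, log2 fold changes were 1.53, 0.81 and 0.47 for the genes most like MD02G1192600. They were 0.37, 0.12 and 0.97 for those most like MD00G1180100, and 1.20, 0.60 and 0.45 for those most like MD03G1029100. An r over 0.99 was reached with 6 genes for MD02G1192600, 34 for MD00G1180100 and 56 for MD03G1029100. No XTH or Csl gene was among those named. Among the 3 genes themselves, r was 0.97 between both XTH genes, 0.92 between XTH6 and CslE1, and 0.96 between XTH8 and CslE1.

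Of the 29 tested genes within 10 places of the 3 in the order of IDs, 3 (10.3%) were called, close to the 10.8% of all tested genes. Of the 10 IDs on each side of MD02G1192600, 10 of the 20 had no read in any library, among them 8 of the 10 before it, and 8 were tested. None was called higher, and MD02G1192800, for which no description was held, was lower (log2 fold change -1.06, edgeR adjusted p = 0.00232). Of the 20 around MD03G1029100, 9 were tested and 1 was higher, the oligopeptide transporter 5 gene MD03G1029900 (log2 fold change 3.26, edgeR adjusted p = 0.000142). Of the 20 around MD00G1180100, 12 were tested and 1 was higher, MD00G1179300 (log2 fold change 0.22, edgeR adjusted p = 0.0281), a call that was lost without any library but WF A (adjusted p 0.0679 to 0.104). With the replicate letter as a block its adjusted p was 0.00679. Since MD00 IDs lie on unassigned sequence, neighbouring numbers there need not be neighbours in the genome.

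**Figure D3:**
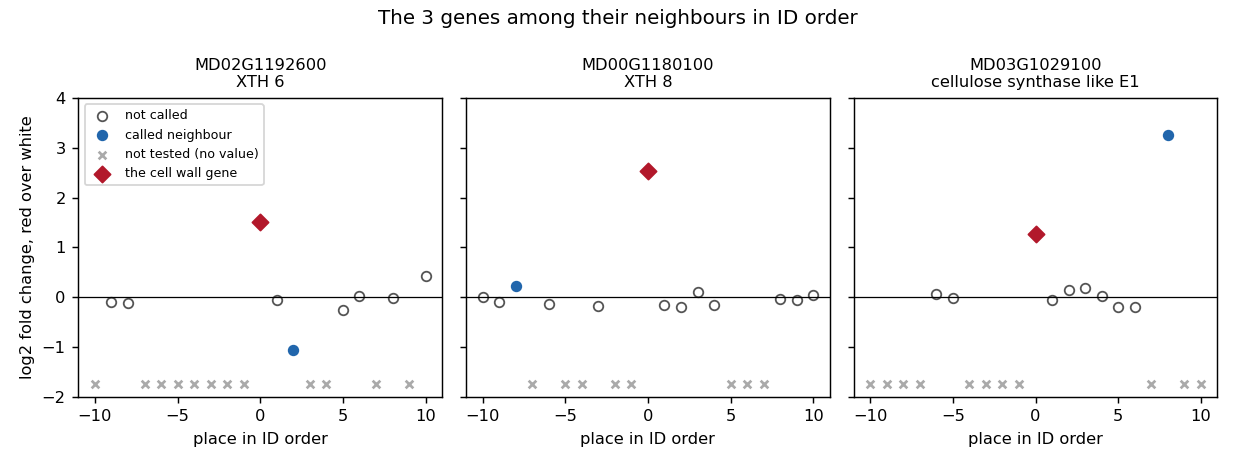
Log2 fold change (RF over WF) of the 10 gene IDs on each side of each of the 3 genes, by place in the order of IDs, with crosses at the bottom for IDs not tested. The 3 genes, marked with a diamond, stand at 1.51, 2.54 and 1.27, and the oligopeptide transporter gene 8 places after CslE1 stands at 3.26.

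The other XTH genes with a description were all higher in RF as well. All 8 XTH genes, the members above included, were called higher by edgeR, against 6.08% of all tested genes, and the median log2 fold change was 0.99, against -0.0045 over all tested genes. The descriptions of these 8 came from the study's own list of called genes from these libraries, so the count is no independent evidence of a direction and says nothing of XTH genes outside that list. As held here, that list described 767 of the 930 genes called higher by more than 0.5 on the log2 scale and 0 of the 787 called lower by more than 0.5, so XTH genes that were strongly lower would not appear. Per library, RF A was the highest RF library for 7 of the 8, the exception being MD13G1237300, highest in RF C.

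MD15G1303500, a second XTH6 gene, on chromosome 15, had 781, 507 and 487 TPM in RF libraries A, B and C, against 321, 255 and 258 TPM in WF. The flesh types did not overlap, RF A was the highest as for MD02G1192600, and the log2 fold change was 1.09 with an SE of 0.17 (edgeR adjusted p = 0.00191). MD09G1152600, an XTH16 gene, had 41.0, 17.1 and 20.4 TPM in RF, against 9.11, 8.26 and 4.42 TPM in WF, with RF A again apart, and its log2 fold change was 1.85 with an SE of 0.33 (edgeR adjusted p = 0.00457). The xyloglucan endotransglycosylase 6 gene MD13G1237300 averaged 26.8 ± 3.62 TPM in RF and 14.6 ± 4.45 TPM in WF (SD, n = 3 each), a log2 fold change of 0.88 (edgeR adjusted p = 0.00951). The XTH28 gene MD16G1014000 averaged 131 ± 10.3 TPM in RF and 85.7 ± 14.6 TPM in WF, a log2 fold change of 0.62 (edgeR adjusted p = 0.00542). These 4 calls held in the absence of any single library.

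The remaining XTH calls were less firm. The xyloglucan:xyloglucosyl transferase 33 gene MD16G1091200 averaged 75.1 ± 8.15 TPM in RF and 56.4 ± 4.45 TPM in WF (SD, n = 3 each), with a log2 fold change of 0.42 (edgeR adjusted p = 0.0122). Leaving out WF B ended this call (adjusted p = 0.0628). With the replicate letter as a block the adjusted p was 0.000119. MD10G1315100, a second XTH8 gene and the most abundant of the family, averaged 749 ± 26.3 TPM in RF and 636 ± 21.1 TPM in WF, with a log2 fold change of 0.24 (edgeR adjusted p = 0.0483). It was no longer called when any library but RF B was left out (adjusted p 0.0582 to 0.186), while the fit with the replicate letter as a block gave an adjusted p of 0.00335.

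**Figure D4:**
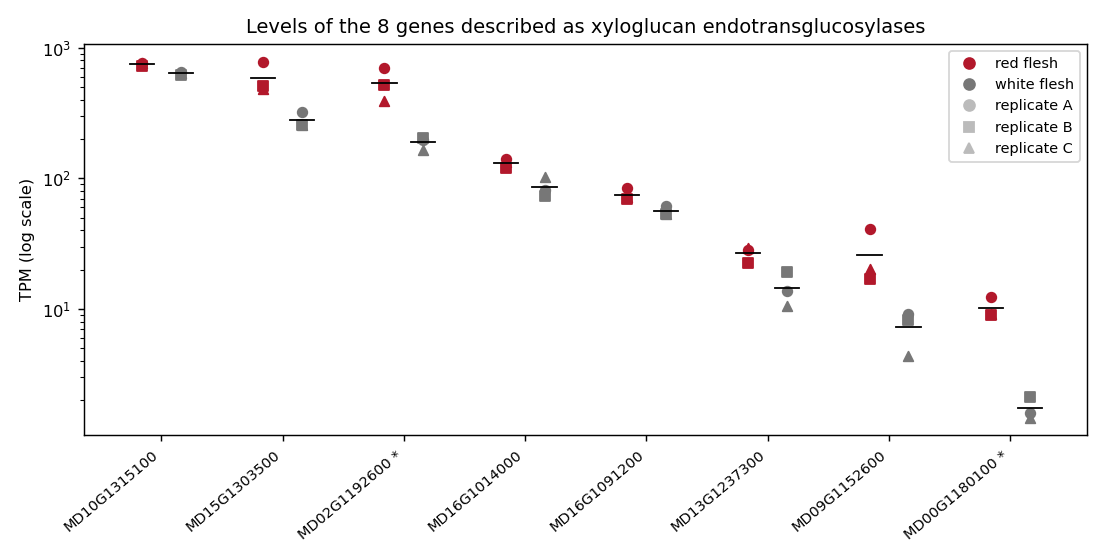
TPM of the 8 described XTH genes on a log axis, RF left of WF for each gene, with 1 point per library and the xyloglucan genes described above marked with a star. MD10G1315100, MD15G1303500 and MD02G1192600 hold most of the TPM, and MD00G1180100 is the lowest, at 8.95 to 12.4 TPM in RF and 1.48 to 2.14 TPM in WF.

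Summed over the 8 genes, XTH TPM was 1906 to 2552 in RF and 1232 to 1342 in WF. MD02G1192600 took 24.7 ± 3.62% of the sum in RF and 14.9 ± 1.69% in WF (SD, n = 3 each). MD15G1303500 took 27.2 ± 2.91% in RF and 21.9 ± 1.80% in WF, and MD10G1315100 took 35.4 ± 5.03% in RF and 50.2 ± 1.48% in WF. MD00G1180100 took 0.474 ± 0.0191% in RF and 0.138 ± 0.0310% in WF. In order of level in RF came MD10G1315100 at 749 ± 26.3, MD15G1303500 at 592 ± 164 and MD02G1192600 at 536 ± 154 TPM, and neither pair of neighbours in that order differed beyond the SDs. In WF the order was the same and the SDs did not overlap, at 636 ± 21.1, 278 ± 37.3 and 189 ± 21.7 TPM. Hence the XTH8 genes, which share a description, sat at opposite ends of the family in level and in fold.

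In the cellulose synthase superfamily, the fold of CslE1 stood above those of the other 6 described genes, which ran from -0.24 to 0.56 on the log2 scale. Of the 7 genes, 4 were called higher (CslE1, picked for its difference, among them), 1 lower, and 2 were not called, against 6.08% higher and 4.68% lower over all tested genes. With the replicate letter as a block 6 were higher. The median log2 fold change was 0.47. These 7 descriptions also came from the study's list of called genes, so being called was close to a condition of entry and nothing is read from the counts. Without RF A, RF C or WF B, 2 of the 7 were called higher. RF A was the highest RF library for 6 of the 7.

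Among the CslC genes, which make the xyloglucan backbone in Arabidopsis, CslC4 MD17G1038900 averaged 16.9 ± 1.64 TPM in RF and 12.3 ± 0.54 TPM in WF (SD, n = 3 each), with a log2 fold change of 0.47 (edgeR adjusted p = 0.00649), and this call held without any single library. CslC4 MD09G1037900 averaged 100.1 ± 14.8 TPM in RF and 69.7 ± 10.7 TPM in WF, with a log2 fold change of 0.53 (edgeR adjusted p = 0.0207), and CslC12 MD15G1064400 averaged 69.7 ± 8.21 TPM in RF and 53.0 ± 3.24 TPM in WF, with a log2 fold change of 0.40 (edgeR adjusted p = 0.016). Both calls were lost without RF A, RF C or WF B, with adjusted p of 0.0911, 0.0837 and 0.0914 for the CslC4 gene and 0.073, 0.0695 and 0.0631 for CslC12. With all libraries and the block, edgeR gave adjusted p of 1.72e-05 for this CslC4 gene and 0.000741 for CslC12. CslC6 MD10G1156200, with a log2 fold change of 0.56 (SE 0.16), was not called in the unblocked fit (edgeR adjusted p = 0.0516) and was called with the block (adjusted p = 0.00129).

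Cellulose synthase 1 (MD08G1147200), a catalytic subunit of cellulose synthesis in the primary wall, averaged 199.6 ± 15.2 TPM in RF and 170.1 ± 13.4 TPM in WF (SD, n = 3 each). Its log2 fold change was 0.24 (edgeR adjusted p = 0.102, and 0.00529 with the block). CslA02 (MD03G1133700), of the mannan-making group, was the lower gene, with 116 ± 3.76 TPM in RF and 137 ± 9.24 TPM in WF and a log2 fold change of -0.24 (edgeR adjusted p = 0.0342). That call was lost without any library but WF C (adjusted p 0.06 to 0.116), and the fit with the block gave an adjusted p of 0.00326.

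Other wall genes were described mostly from the same list, 14 of 15 in the first group below, 10 of 12 in the second and 7 of 7 in the third. Their counts of calls therefore follow from how they were listed, and strongly lower genes are missing from them, so neither the counts, against 6.08% higher and 4.68% lower over all tested genes, nor the balance of directions is read as a result. Of 15 other genes of cellulose and hemicellulose, 8 were higher, 5 lower and 2 not called, with a median log2 fold change of 0.35. Without RF A, and likewise without WF B, 3 were higher. Without RF C 4 were, and without WF C 5. Leaving out any library but WF C left 2 lower. The largest called differences upward among these 15 were in TRICHOME BIREFRINGENCE-LIKE 22 (MD09G1037400), of a family of polysaccharide acetyltransferases, at 0.89 (edgeR adjusted p = 0.0262), and a COBRA-like gene (MD09G1072800) at 0.67 (edgeR adjusted p = 0.00647). The first of these calls was lost without RF A, RF C, WF B or WF C (adjusted p 0.0533 to 0.115). With the block its adjusted p was 0.00139. Downward they were in alpha-galactosidase 2 (MD05G1321700) at -0.46 (edgeR adjusted p = 0.00761) and expansin A13 (MD17G1271500), of a family that loosens walls, at -0.43 (edgeR adjusted p = 0.00383).

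Of 12 pectin genes, 4 were higher, 6 lower and 2 not called, with a median log2 fold change of -0.29. Without RF A, 2 were higher. Galacturonosyltransferase-like 10 (MD17G1042500) differed by 2.72 (edgeR adjusted p = 0.00271), at 3.86 ± 2.02 CPM in RF and 0.58 ± 0.35 CPM in WF (SD, n = 3 each). It had 154, 75 and 64 reads in RF libraries A, B and C and only 25, 13 and 7 in WF, which limits its fold change. A pectin acetylesterase gene (MD08G1205300) was higher by 0.65 (edgeR adjusted p = 0.0156), a call lost without RF A (adjusted p = 0.0713). With the block its adjusted p was 0.00198. MD01G1220700, described only by the plant invertase/pectin methylesterase inhibitor superfamily, had a log2 fold change of -0.64 (edgeR adjusted p = 0.00255). A rhamnogalacturonate lyase gene (MD15G1389400), whose product cleaves the backbone of rhamnogalacturonan I, had one of -0.49 (edgeR adjusted p = 0.00126).

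Of 7 callose and arabinogalactan genes, 4 were higher, 1 lower and 2 not called, with a median log2 fold change of 0.26. Without RF A or without RF B, 2 were higher. Arabinogalactan protein 16 (MD07G1144900) was at 0.92 (edgeR adjusted p = 0.00422), glucan synthase-like 5 (MD17G1240300), of the callose synthase family, at 0.37 (edgeR adjusted p = 0.0031) and plasmodesmata callose-binding protein 3 (MD06G1202000) at -0.34 (edgeR adjusted p = 0.00319). Across these 3 groups, 3 genes were described only from the study's list of genes near methylated regions. They were MD01G1220700 above, expansin A4 (MD07G1200300, edgeR adjusted p = 0.588) and a pectinesterase gene (MD06G1191000, edgeR adjusted p = 0.988).

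Markers of other cell types were also compared. Of these, 23 of 25 green tissue genes, 3 of 3 of epidermis and cuticle and 5 of 5 vascular genes were described from the study's list of called genes, so their counts of calls, against 6.08% higher and 4.68% lower over all tested genes, were largely set by that choice. Of 25 genes of green tissue, 20 were higher in RF, none was lower, 4 were not called and the photosystem I subunit H2 gene had no read. Without WF B, 13 were higher and 1 lower. Their summed TPM was 2892, 2896 and 2849 in RF libraries A, B and C, against 1778, 1682 and 1968 in WF. The 3 genes of epidermis and cuticle, lipid transfer protein 4 and 3-ketoacyl-CoA synthases 10 and 11, were all higher (2 of the 3 without RF A or WF B), and their summed TPM was 63.0, 35.6 and 37.6 in RF libraries A, B and C, against 22.3, 18.8 and 18.6 in WF. All 3 were highest in RF A, the library that was also highest for both XTH genes and for CslE1. Over the 19503 genes with at least 100 mean counts, RF A was the highest RF library for 34.5%. Of 5 vascular genes, 3 were higher and 2 lower (0 lower without RF A or WF B, and 1 without RF B, RF C or WF A). RF A was the highest for the vascular genes too, with a summed TPM of 1446, 1331 and 1264 in RF libraries A, B and C. In WF the sum was 1027, 907 and 854. Most of that sum came from MD05G1300100, a xylem bark cysteine peptidase 3 gene, at 1270 ± 87.5 TPM in RF and 873 ± 85.0 TPM in WF (SD, n = 3 each). Another gene of that description, MD08G1023300, was among the lower ones (log2 fold change -0.48). The part of these markers in the differences of the 3 genes was not tested.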

How the data were processed

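Strand-marked poly(A) libraries of RF and WF mesocarp, 3 of each, were sequenced as paired reads. For each library the authors deposited a salmon-type table of estimated counts of reads per gene, which need not be whole. The deposited tables also hold TPM, a length and an effective length (unit other, used only in 1 alternative). The version of the quantifier is not given in the sources used here. The authors' own fold changes and p-values were not used. IDs follow the GDDH13 annotation, and descriptions came from the study's annotation, of which the list of called genes was held only in part and described 0 of the 787 genes called lower by more than 0.5 on the log2 scale. No ID matched the RefSeq table (0 matches).

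Expected counts were rounded to whole numbers and tested with edgeR 4.0.16 in R 4.3.3 (quasi-likelihood, TMM, its expression filter, no term but flesh type). Tests were two-sided, with Benjamini-Hochberg adjustment over 28610 genes. The SE of a log2 fold change was its size divided by the square root of the F statistic. The 3 genes, the lists, the tests and the naming rule were chosen with earlier results of these data known. Named were the 3 genes, all XTH and Csl genes, the 2 largest called differences per direction in each other wall list, and the 3 most similar profiles. The 3 genes described only near methylated regions, the called neighbouring genes and the marker genes were named outside that rule, after their values were seen. Markers were given as counts and sums.

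The treatment label says that RF and WF were cut from shared fruits, but no label says that a letter marks the same fruits. The letters were taken to pair the libraries from the data. Deviations from the group means correlated at 0.32, 0.26 and 0.26 within letters A, B and C, and at 0.02 or less between letters. Replicates of a flesh type differed beyond counting error, so none was counted as a duplicate. Alternatives were the replicate block, DESeq2 1.42.0 and its size factors, no filter, a minimum mean of 50 counts, offsets for effective length, estimated reads in place of TPM, and leaving out each library. Scripts were tested on simulated data. SDs include counting error.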

Additional observations from a re-analysis of the deposited data

How the results depend on the processing

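The 3 genes stayed higher in RF in every other fit listed among the alternatives. Since they were picked with this difference known, that is a description and no test. Leaving out 1 library at a time, the log2 fold change was 1.26 to 1.69 for MD02G1192600, 2.37 to 2.71 for MD00G1180100 and 1.15 to 1.36 for MD03G1029100. Over all genes the count higher in RF was then 939 to 1624 and the count lower 666 to 1523. By list, the counts higher were 6 to 8 for XTH genes, 2 to 5 for the cellulose synthase superfamily, 3 to 9 for other cellulose and hemicellulose genes, 2 to 4 for pectin genes and 2 to 5 for callose and arabinogalactan genes. The counts lower were 0 to 1 for the superfamily and 2 to 5 for other cellulose and hemicellulose genes. With the replicate block, 2981 genes were higher and 2401 lower, and the lower callose and arabinogalactan genes numbered 2, as they did with DESeq2 and with no filter. With the block, the log2 fold changes of the 3 genes were 1.48, 2.54 and 1.27 for MD02G1192600, MD00G1180100 and MD03G1029100. DESeq2 called 1579 genes higher and 1162 lower. The lower genes of the other cellulose and hemicellulose list numbered 3 with the minimum mean of 50 counts and 3 with effective-length offsets. In estimated reads the ratio of MD02G1192600 to MD00G1180100 in WF averaged 126.7, against 109.6 in TPM. TPM is scaled for length and estimated reads are not, so these averages differ by the effective lengths of the genes. The cause of the other shifts was not tested. With DESeq2 size factors in edgeR, the call of MD10G1315100 was lost (adjusted p = 0.0514). The 28 to 40 WF reads of MD00G1180100 limit its fold change.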
